A study of Mus musculus with 6 samples.

Results

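The 8 genes described here (MCPT8, PRSS34, CPA3, GZMB, FCER1A, HDC, CD200R3 and CYP11A1 in the files) include Gzmb, a serine protease better known from cytotoxic lymphocytes. The others encode products by which mouse basophils are recognised. Among them are the serine proteases Mcpt8 and Prss34, the metalloprotease Cpa3, the IgE receptor alpha chain Fcer1a and the histamine-forming enzyme Hdc. The activating receptor Cd200r3 and the steroid-forming enzyme Cyp11a1 complete the 8. All were chosen by name, and 8 of 8 were found among the 18011 genes of the tables. Single-cell RNA sequencing had been run on lineage-negative haematopoietic stem and progenitor cells of mice, 3 with a Stag2 knockout (Stag2 KO; KO1 to KO3) and 3 with wild type Stag2 (Stag2 wt; WT1 to WT3), and the comparison asks how the knockout alters blood cell formation. The protein Stag2 belongs to cohesin, which pairs sister chromatids and folds chromatin into loops. The labels give the genotype and the cell fraction, and no age, sex, allele, deleting Cre or treatment. They call the cells lineage-negative, yet the tables also held cells with basophil, T or NK, and monocyte genes.

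Basophils are granulocytes that arise from bone marrow progenitors under the transcription factor Gata2 and the cytokine interleukin 3. Antigen that crosslinks IgE on the Fcer1a receptor makes them release histamine, lipid mediators, cytokines and granule proteases. Mcpt8 and Prss34 are granule proteases largely restricted to basophils in the mouse, whereas Cpa3 and Hdc are shared with mast cells and are also transcribed in some immature progenitors.

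Cells were classed by summed counts of unique molecular identifiers (UMIs, each standing for 1 captured RNA molecule). A cell with at least 3 UMIs of Fcer1a, Ms4a2 (the receptor's beta chain), Cd200r3 and Cyp11a1 together was called basophil-like, and dividing where Mki67, Top2a and Cdk1 gave at least 1 UMI, otherwise resting. Of 23416 cells kept, 4792 were resting and 1328 dividing basophil-like. Resting cells numbered 796, 443 and 818 in KO1 to KO3 and 444, 892 and 1399 in WT1 to WT3, and dividing cells 215, 115 and 204 and then 144, 274 and 376. A further 725 cells were stem cell-like, with at least 3 UMIs of genes such as Hlf and Mecom and none of Flt3 or Dntt. Because Fcer1a, Cd200r3 and Cyp11a1 are part of the gate, their values inside these classes are given as a description, and they were tested only in all cells or behind a gate that left each one out. Just inside the gate, 15 to 55 cells per library had 3 UMIs, and just outside it 42 to 130 had 2.

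Most genes of a basophil list outside the gate went with the basophil label, but not all. Gata2 was at 836 to 966 UMIs per 1000000 of the class (CPM) in resting cells against 5.51 to 46.5 in T/NK-like cells. Mcpt8, Prss34, Il3ra, Csf2rb, Cd63 and Grm6 were also higher in resting than in T/NK-like cells of every library. Itga2 (5.81 to 11.2 against 5.22 to 10.1 CPM) and Cd69 (20.5 to 40.9 against 11.6 to 34.7) overlapped between these classes. In dividing cells Itga2 was below the T/NK-like range. Gata2 was at 92.6 to 152.5 CPM in stem cell-like cells. The genes leading the resting class over other cells were Ccl6, Ccl3 and Lilrb4a, and those leading the dividing class were Prss34 and Mcpt8. The mast cell proteases Mcpt4 and Mcpt2 were at 0 in resting cells of every library, and the 5 of 9 mast cell markers with a column, mostly Kit, summed to 6.34 to 13.8 CPM there. Of basophil-like cells, 43.7% to 45.4% in KO libraries and 34.1% to 37.8% in wt libraries also met the gate of another class, without overlap. Stag2 itself was at 21.4, 15.2 and 19.7 CPM in resting KO cells and 58.1, 44.5 and 53.1 CPM in wt cells (log2 fold change −1.54 ± 0.158 (SE), edgeR adjusted p = 2.11e-06), so residual counts remained while the groups did not overlap.

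Promoters of 5 members, the 3 proteases of high level, the IgE receptor and Hdc, are printed here because Gata2 and Runx1 are known regulators of basophil genes. Each is the 250 bases before the RefSeq start on GRCm38.p6, 5′ to 3′ on the gene's strand. Capitals mark AGATAA, known from Gata factors, and TGTGGT, known from Runx factors, searched on both strands, so that TTATCT and its counterpart ACCACA are the same motifs read in reverse.

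Mcpt8, chr14:56085198-56085447, minus strand: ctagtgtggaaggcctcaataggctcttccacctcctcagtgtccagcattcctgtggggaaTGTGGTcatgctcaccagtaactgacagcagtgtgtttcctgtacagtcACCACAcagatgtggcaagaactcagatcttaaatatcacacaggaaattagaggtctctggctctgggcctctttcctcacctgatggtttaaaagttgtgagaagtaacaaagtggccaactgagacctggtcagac
Prss34, chr17:25298144-25298393, plus strand: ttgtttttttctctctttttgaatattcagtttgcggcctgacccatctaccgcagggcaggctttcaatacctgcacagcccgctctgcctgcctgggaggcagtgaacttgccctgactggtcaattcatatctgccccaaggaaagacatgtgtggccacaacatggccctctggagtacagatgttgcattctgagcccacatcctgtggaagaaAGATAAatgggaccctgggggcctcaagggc
Cpa3, chr3:20242182-20242431, minus strand: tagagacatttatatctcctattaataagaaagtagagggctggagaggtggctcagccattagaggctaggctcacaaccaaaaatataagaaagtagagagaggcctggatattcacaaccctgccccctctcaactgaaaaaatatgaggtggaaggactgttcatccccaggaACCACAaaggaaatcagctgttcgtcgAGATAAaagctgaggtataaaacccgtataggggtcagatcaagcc
Fcer1a, chr1:173227230-173227479, minus strand: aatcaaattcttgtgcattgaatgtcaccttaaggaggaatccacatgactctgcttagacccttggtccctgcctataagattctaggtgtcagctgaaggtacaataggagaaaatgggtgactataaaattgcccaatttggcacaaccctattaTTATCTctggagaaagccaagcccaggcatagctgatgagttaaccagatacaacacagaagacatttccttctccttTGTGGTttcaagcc
Hdc, chr2:126618679-126618928, minus strand: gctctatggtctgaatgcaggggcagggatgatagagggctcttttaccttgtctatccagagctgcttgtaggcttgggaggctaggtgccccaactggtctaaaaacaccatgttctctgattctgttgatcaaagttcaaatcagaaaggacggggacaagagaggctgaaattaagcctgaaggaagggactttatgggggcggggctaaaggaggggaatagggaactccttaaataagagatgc

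AGATAA began 31 bases before the start of Prss34, 46 before that of Cpa3 and 39 before that of Cd200r3, and its reverse 92 bases before that of Fcer1a. AGATAA or its reverse was in 9.99% of 32851 promoter windows. TGTGGT or its reverse was in the windows of Mcpt8, Cpa3, Fcer1a and Gzmb, and in 14.05% of all windows. No match to either was in the windows of Hdc or Cyp11a1, and the C/EBP palindrome TTGCGCAA, found in 0.16% of windows, was in none of the members'. These are matches of letters, and binding was not measured. The members lie on 7 chromosomes: Mcpt8 (14:56082166-56085273) and Gzmb (14:56258838-56262260) share the protease cluster of chromosome 14, Prss34 is at 17:25298394-25300165, Cpa3 at 3:20215620-20242181, Fcer1a at 1:173221284-173227214, Hdc at 2:126593667-126619299, Cd200r3 at 16:44943678-44981380 and Cyp11a1 at 9:58006411-58027023 in GENCODE M21.

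Over all kept cells, where no gate enters, 5 of the 8 members fell in Stag2 KO and none rose. The 5 were Fcer1a, Mcpt8, Prss34, Cyp11a1 and Cd200r3, the genes most tied to basophils, while Cpa3, Hdc and Gzmb were not called. Of 12643 genes tested, 7.16% were lower in KO and 3.61% higher, at an edgeR adjusted p under 0.05. Fcer1a was at 184, 184 and 246 CPM in KO1 to KO3 and 504, 652 and 507 CPM in WT1 to WT3 (log2 fold change −1.47 ± 0.131, edgeR adjusted p = 2.37e-04). Mcpt8 was at 2593, 2471 and 3134 CPM against 5360, 6790 and 6344 (−1.21 ± 0.108, edgeR adjusted p = 2.37e-04). Every wt library lay above every KO library for both. Prss34 was at 3874, 3926 and 5042 CPM against 6942, 7533 and 8184 (−0.85 ± 0.111, edgeR adjusted p = 0.00136). The falls of Cyp11a1 (−0.56 ± 0.105, edgeR adjusted p = 0.00791) and Cd200r3 (−0.42 ± 0.096, edgeR adjusted p = 0.0191) were smaller. Both calls were lost among cells with at least 2000 UMIs (−0.31 and −0.24) and in the 4 libraries whose title code starts with XA (−0.63, edgeR adjusted p = 0.0628, and −0.35), and that of Cd200r3 also with the prefix covariate (−0.35), without KO1 (−0.36) and without WT2 (−0.39). Cpa3 was at 401 ± 46.5 (SD) CPM in KO and 477 ± 53.2 in wt, Hdc at 130 ± 8.10 and 147 ± 30.5, and Gzmb at 12.7 ± 3.36 and 16.4 ± 7.26 (n = 3 each), with overlapping libraries. Basophil-like cells made up 25% ± 2.70 of KO and 26.5% ± 1.83 of wt cells (exact 2-sided permutation p = 0.4; 3 against 3 allows no p below 0.1).

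In resting basophil-like cells 4 of the 5 members outside the gate fell in KO: Hdc, Mcpt8, Prss34 and Cpa3. The share of all 8989 tested genes called lower was 7.18%, and 3.46% were called higher. Hdc, which makes histamine from histidine, was at 423, 443 and 452 CPM in KO1 to KO3 and 720, 964 and 1052 in WT1 to WT3 (log2 fold change −1.17 ± 0.113, edgeR adjusted p = 1.06e-06). The lowest wt library was well above the highest KO library. Mcpt8, the chymase-related protease of basophil granules, was at 14317, 12822 and 14383 CPM against 22218, 25320 and 28723 (−0.99 ± 0.076, edgeR adjusted p = 4.38e-08). Prss34, a tryptase-like granule protease, was at 22512, 20220 and 23305 CPM against 29286, 25916 and 37333 (−0.61 ± 0.095, edgeR adjusted p = 2.66e-04). For both proteases the groups did not overlap, though the wt libraries spread more widely. Cpa3, a carboxypeptidase that removes aromatic or aliphatic residues from the C-terminal ends of peptides, was at 1680, 1618 and 1756 CPM against 1766, 1970 and 2276 (−0.37 ± 0.089, edgeR adjusted p = 0.0109). KO3 and WT1 nearly met for Cpa3, and its call was lost without KO1, without KO2, with the title prefix as a covariate (−0.20, edgeR adjusted p = 0.451), among XA libraries (−0.19) and when cells that also meet another class were left out (−0.22, edgeR adjusted p = 0.208). Gzmb, the granzyme better known from cytotoxic lymphocytes, was at 56.9, 65.3 and 17.3 CPM against 10.4, 55.3 and 21.9 (0.39 ± 0.399, edgeR adjusted p = 0.613), with no separation of the genotypes. These are shares of a cell's UMIs, and resting KO cells held more UMIs than resting wt cells (medians of 3477 to 3878 against 1857 to 2884). As UMIs per cell, unscaled, Mcpt8 was at 59.2 ± 0.601 in KO and 78.9 ± 8.98 in wt, Hdc at 1.89 ± 0.149 and 2.82 ± 0.485, Prss34 at 94.2 ± 2.53 and 94.8 ± 5.45, and Cpa3 at 7.22 ± 0.279 and 6.21 ± 0.639. On that scale Prss34 was level and Cpa3 higher in KO. In cells taken instead by at least 3 UMIs of Mcpt8 and Prss34 together, Hdc (−0.33, edgeR adjusted p = 0.319) and Cpa3 (0.22, edgeR adjusted p = 0.475) were not called. With at least 20 such UMIs, a setting added after the data were seen, both were (−0.93 and −0.59, edgeR adjusted p = 1.04e-04 and 0.00175). The gate of 3 can also take in other cells: unthinned, 32.2% of KO and 53.1% of wt T/NK-like cells had a UMI of Mcpt8.

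The gate genes gave, as a description, the same order. In resting cells Fcer1a was at 1300, 1186 and 1373 CPM in KO against 2790, 3030 and 2758 in wt. Cd200r3 was at 1015, 923 and 1052 against 1207, 1232 and 1183, and Cyp11a1 at 540, 574 and 605 against 888, 788 and 766. The fourth gate gene, Ms4a2, overlapped between genotypes at 943 ± 77.3 and 880 ± 23.4 CPM. Behind gates that each left 1 gene out (at least 2 UMIs of the other 3), Fcer1a was at 1166 ± 154 CPM in KO and 2949 ± 382 in wt (−1.45 ± 0.102, edgeR adjusted p = 3.64e-07, where 10.6% of genes were called), and it was called under each of 18 alternatives. Cyp11a1, which cleaves the side chain of cholesterol, fell there by 0.43 on the log2 scale (SE 0.088, edgeR adjusted p = 0.00744, where 8.77% were called). Cd200r3 fell there by 0.31 (SE 0.09, edgeR adjusted p = 0.0494, where 8.55% were called), and that call was lost in 12 of 18 alternatives.

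In dividing basophil-like cells 3 of the 5 members outside the gate fell: Mcpt8, Prss34 and Cpa3. The background was 2.78% of 8209 genes called lower and 0.999% called higher. Mcpt8 was at 19668, 17090 and 22031 CPM in KO1 to KO3 and 37711, 48640 and 43322 in WT1 to WT3 (−1.27 ± 0.088, edgeR adjusted p = 2.54e-08). Prss34 was at 30493, 29108 and 36536 CPM against 48710, 57371 and 56724 (−0.89 ± 0.079, edgeR adjusted p = 1.01e-06). The wt libraries lay above all KO libraries for both genes by more than the spread within either group. Cpa3 was at 1783, 1692 and 1967 CPM against 2629, 3260 and 2751 (−0.79 ± 0.096, edgeR adjusted p = 3.56e-05). Hdc was at 324, 298 and 319 CPM against 300, 385 and 447 (−0.40 ± 0.129, edgeR adjusted p = 0.106), and Gzmb at 18.4 ± 6.99 and 20.9 ± 1.11 CPM (SD, n = 3 each). WT1 lay within the KO range for Hdc. In dividing cells taken by at least 3 UMIs of Mcpt8 and Prss34, a gate that can also take in other cells, the direction of Hdc turned (0.60, edgeR adjusted p = 0.00448). Hdc was called lower without WT1 (−0.53, edgeR adjusted p = 0.00548), in the authors' clusters (−0.52), with no low-count filter (−0.42) and with the gate on thinned cells (−0.40, edgeR adjusted p = 0.0464). As a description, Fcer1a was at 1113 ± 199 and 3189 ± 667 CPM, Cd200r3 at 465 ± 13.4 and 634 ± 67.1, and Cyp11a1 at 240 ± 15.7 and 311 ± 5.55, in KO and wt. Summed neutrophil marker genes were at 1590, 6484 and 438 CPM in dividing cells of KO1 to KO3 and 113, 134 and 618 in WT1 to WT3. KO3 was thus below WT3. In resting cells they were higher in KO (296 to 494 CPM) than in wt (97.2 to 195). T and NK marker genes were lower in KO than in wt in resting (19.0 to 34.4 against 72.5 to 91.8 CPM) and dividing cells (10.1 to 32.4 against 65.6 to 78.4). Monocyte marker genes were also lower in both (290 to 346 against 371 to 410, then 119 to 157 against 208 to 294), and megakaryocyte marker genes were higher in resting KO cells (290 to 298 against 221 to 252). Eosinophil marker genes varied widely between libraries, and the genotypes overlapped. They were at 38.3 to 673 CPM in KO and 80.6 to 944 in wt resting cells, and at 60.3 to 426 and 283 to 1391 in dividing cells. The part of these marker genes in the members' differences was not tested.

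**Figure D1:**
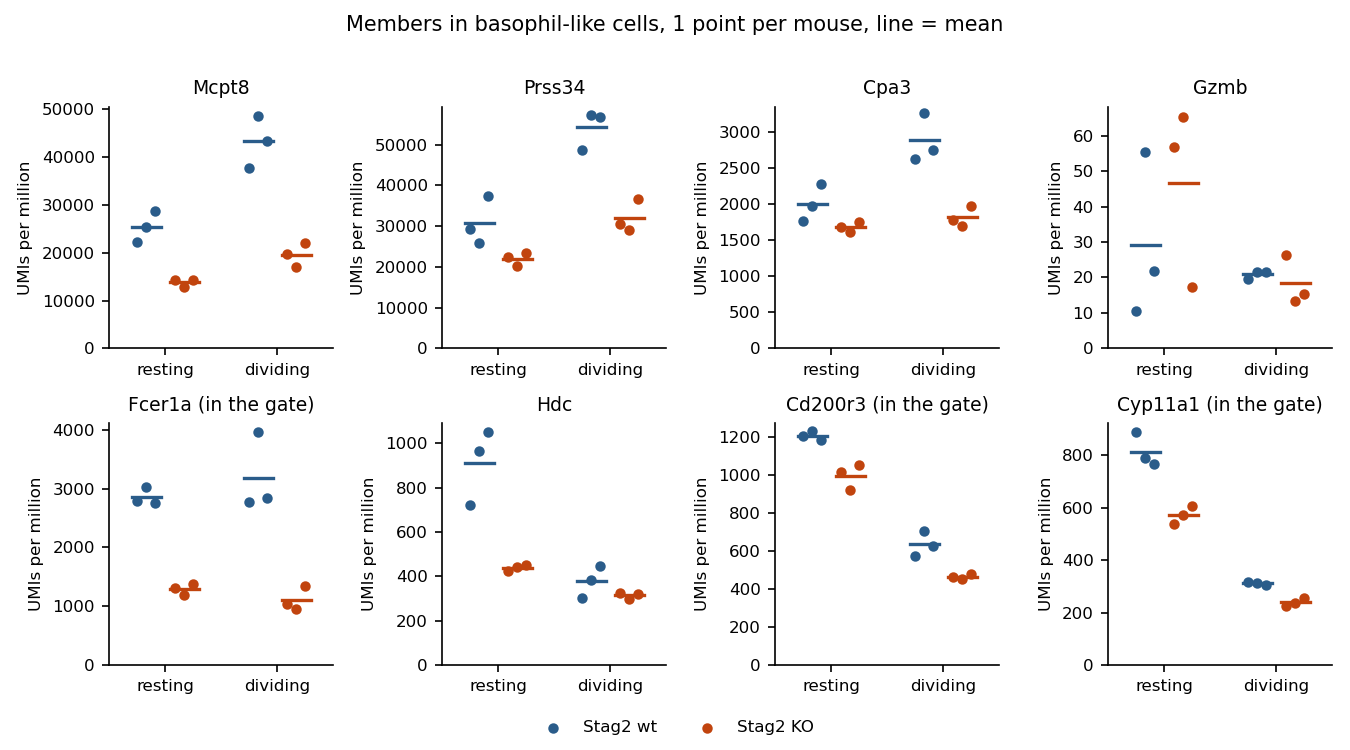
UMIs per 1000000 of the class (linear axis from 0) for the 8 members in resting and dividing basophil-like cells; each point is 1 mouse and each line a group mean. Mcpt8, Prss34 and Cpa3 separate the genotypes in both states, Hdc in resting cells with 423 to 452 in KO and 720 to 1052 in wt, and Gzmb in neither.

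The genotype effect differed between the states for 4 of the 5 members, Hdc in one direction and the 3 proteases in the other. Over 9077 genes, 0.628% differed in this way. The log2 fold change of Hdc was 0.79 ± 0.082 less negative in dividing than in resting cells (edgeR adjusted p = 2.88e-08), and this held in all 22 alternatives (0.524 to 0.942). The effects on Cpa3 (−0.42 ± 0.071, edgeR adjusted p = 5.60e-04), Prss34 (−0.29 ± 0.063, edgeR adjusted p = 0.0119) and Mcpt8 (−0.27 ± 0.049, edgeR adjusted p = 0.00135) were more negative in dividing cells. Those of Mcpt8 and Prss34 were lost among cells with at least 2000 UMIs (−0.06 and −0.07) and turned when the gate was set on cells thinned to 2000 UMIs (0.04 for each), and they were also lost without KO1 and without KO2. That of Cpa3 lost its call in the same pair of settings (−0.27 and −0.29, edgeR adjusted p = 0.725 and 0.626) and with at least 20 UMIs of Mcpt8 and Prss34 (−0.30, edgeR adjusted p = 0.123). Between states within a library, Mcpt8 (0.58 ± 0.039), Prss34 (0.63 ± 0.047) and Cpa3 (0.26 ± 0.058) were higher in dividing cells and Hdc (−0.95 ± 0.088) and Gzmb (−0.92 ± 0.191) lower. All 5 were called there, as were 59.7% of all genes, but Cpa3 lost its direction with a gate of at least 2 UMIs (−0.03) and with either Mcpt8 and Prss34 gate (−1.06 and −0.03), and Gzmb with the stricter of these (0.16) and in the authors' clusters (0.86). Median UMIs per cell were 3477 to 3878 in resting KO cells, 1857 to 2884 in resting wt cells, 8056 to 9001 in dividing KO cells and 5604 to 8621 in dividing wt cells. Dividing cells were 20.6% ± 0.653 of basophil-like cells in KO and 23.1% ± 1.70 in wt (exact permutation p = 0.2). The libraries separated with a gate of at least 5 UMIs (19.7% against 23.0%) and among cells thinned to 2000 UMIs (12.5% ± 0.974 against 19.2% ± 3.96 with a gate of at least 2). The exact permutation p was the lowest possible, 0.1, for each. Thinning leaves out cells under 2000 UMIs. In WT3 these were 792 of 1399 resting but 47 of 376 dividing cells, and in KO libraries 16 to 73 resting cells. How far this sets the thinned shares was not tested.

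Cell by cell, the Mcpt8 and Prss34 differences lay in the upper range, and Hdc was lower in KO at the median as well. In resting cells the median Mcpt8 was 56.6, 48.1 and 52.7 UMIs per 10000 UMIs of the cell in KO and 40.5, 62.6 and 51.6 in wt, overlapping. The 90th percentile of Mcpt8 was 309, 286 and 330 in KO against 537, 637 and 686 in wt. The medians overlapped and the 90th percentiles did not. Prss34 had a higher median in KO (26.2, 16.9 and 15.7 against 12.2, 7.50 and 13.6) and a lower 90th percentile (584, 550 and 645 against 838, 736 and 949), so its direction changed along the range. For Cpa3 the 90th percentiles overlapped (28.7 to 32.5 and 31 to 40.8). The median of Hdc was 3.46, 3.49 and 3.82 in KO against 6.76, 9.25 and 9.58 in wt, and its 90th percentile 10.2, 11.4 and 10.9 against 21.0, 25.7 and 32.8. In dividing cells the medians of Mcpt8 separated as well, at 190, 160 and 227 against 448, 580 and 497. Among cells thinned to 2000 UMIs, 58.6% ± 1.68 of resting KO cells and 75.4% ± 3.09 of resting wt cells had a UMI of Hdc (exact permutation p = 0.1, the lowest possible; 0.25 adjusted over 10 such tests). Unthinned these were 76.6% ± 1.63 and 87.2% ± 2.83, and in thinned T/NK-like cells, a class that should lack Hdc, 1.31% and 1.09%. Gzmb had a UMI in 2.13% ± 0.799 and 1.94% ± 0.460 of thinned resting cells, below the 9.27% and 10.4% of T/NK-like cells.

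**Figure D2:**
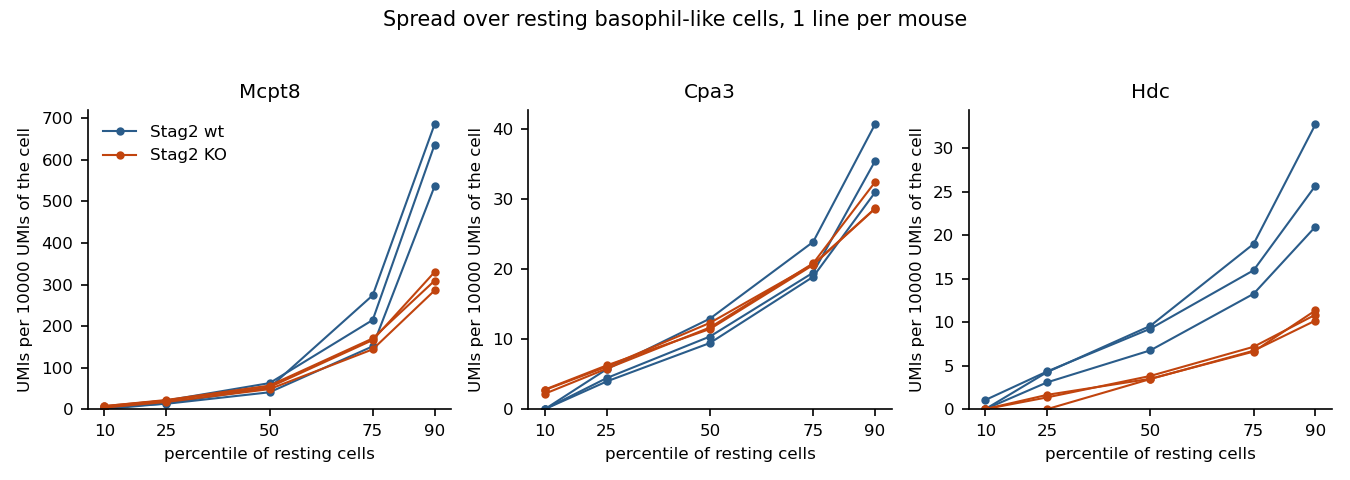
Percentiles of Mcpt8, Cpa3 and Hdc over resting basophil-like cells (UMIs per 10000 UMIs of the cell, linear axis), 1 line per mouse. The Mcpt8 lines meet at the median and part at the 90th percentile (286 to 330 in KO, 537 to 686 in wt), and the Hdc lines are apart at the median.

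Resting cells were then divided at 50 Prss34 UMIs per 10000, a value chosen after the levels were seen, so these values are a description. Cells at or above it made up 44.1%, 40.6% and 41.8% of resting cells in KO1 to KO3 and 34%, 31.7% and 38.5% in WT1 to WT3, with 50 to 131 cells per library between 25 and 100. In these Prss34-high cells Mcpt8 was at 23356 ± 846 CPM in KO and 48304 ± 4886 in wt, and Cpa3 at 2264 ± 109 and 3068 ± 360. In Prss34-low cells Mcpt8 was at 3703 ± 364 and 3802 ± 858 CPM, and Cpa3 at 1069 ± 59.9 and 997 ± 62.1, with overlapping libraries. Mcpt8 and Cpa3 thus differed in Prss34-high cells, while the share of such cells was higher in KO. The cut itself holds Prss34 under 1 limit in Prss34-low cells of both genotypes (826 ± 56.9 and 872 ± 98.9 CPM). Mcpt8 follows Prss34 from cell to cell, and how far the cut sets the likeness of Mcpt8 in Prss34-low cells was not tested. Hdc was at 392 ± 25.6 and 661 ± 103 CPM in Prss34-high cells and at 489 ± 18.9 and 1160 ± 279 in Prss34-low cells, without overlap in either. Fcer1a likewise did not overlap in either (1474 ± 72.3 and 3653 ± 372 CPM, then 1089 ± 123 and 2126 ± 101).

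**Figure D3:**
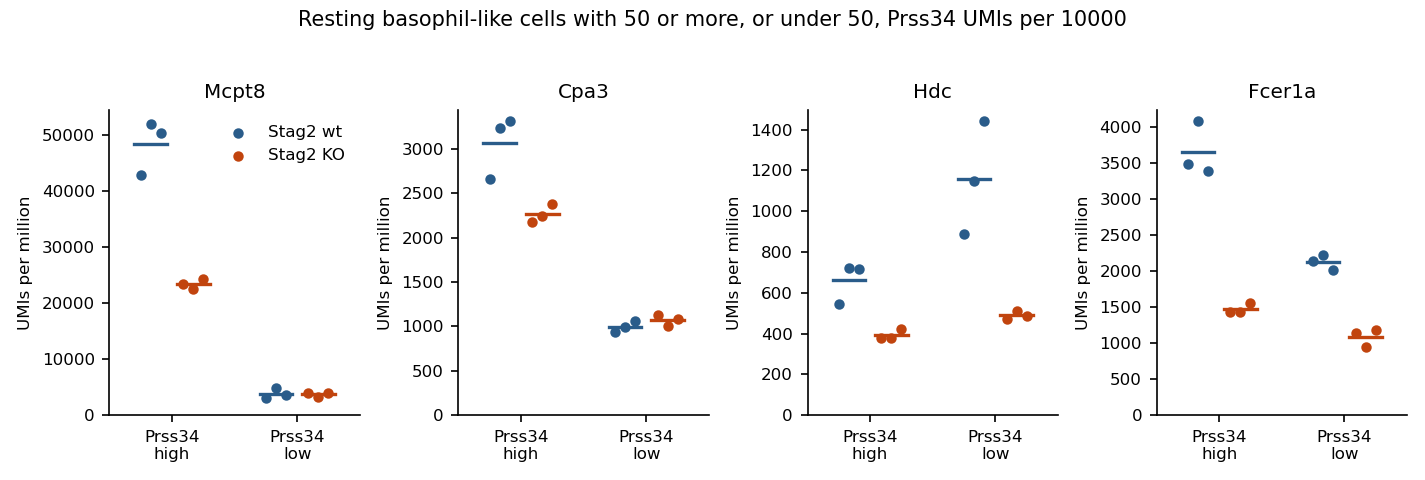
UMIs per 1000000 (linear axes from 0) of Mcpt8, Cpa3, Hdc and Fcer1a in resting basophil-like cells with 50 or more (high) or under 50 (low) Prss34 UMIs per 10000; points are mice, lines group means. Mcpt8 and Cpa3 differ in Prss34-high cells and overlap in Prss34-low cells, while Hdc and Fcer1a are apart in both.

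Mcpt8 and Prss34 moved together, though not in equal measure. In each library the 2 genes' levels per resting cell had a Spearman's rho of 0.791 to 0.905 over 352 to 772 thinned cells of that library, Mcpt8 and Cpa3 one of 0.351 to 0.587, and Mcpt8 and Hdc one of −0.178 to −0.037. The ratio of Mcpt8 to Prss34 UMIs in resting cells was 0.636, 0.634 and 0.617 in KO and 0.759, 0.977 and 0.769 in wt, and in dividing cells 0.645, 0.587 and 0.603 against 0.774, 0.848 and 0.764. The KO ratios were below the wt ratios in both states. Together the 2 genes took 3.30% to 3.77% of all UMIs of resting KO cells and 5.12% to 6.61% of wt cells, and 4.62% to 5.86% against 8.64% to 10.6% in dividing cells.

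Outside the basophil-like classes the levels of Mcpt8 and Prss34 were low. In T/NK-like cells Mcpt8 was at 97.4, 126 and 160 CPM in KO and 250, 197 and 273 in wt (−1.04 ± 0.166, edgeR adjusted p = 0.00700; 1.27% of genes called). In monocyte/dendritic-like cells it was at 79.9, 128 and 103 CPM against 222, 185 and 271 (−1.14 ± 0.176, edgeR adjusted p = 0.00139; 11% called). Of the members outside the gate, Mcpt8 was the one called in these 2 classes, of 5 and of 3 tested. Among wt libraries WT2 was lowest in both, though highest over all cells. T/NK-like cells of KO1, KO2 and WT3 also held neutrophil genes (18021, 12061 and 2801 CPM against 43.2 to 143 elsewhere). The stem cell-like levels of Mcpt8, 72.1, 143 and 101 CPM against 192, 179 and 214, lay within or below the range of T/NK-like cells, a class that should lack the gene. Those of monocyte/dendritic-like cells given above did so too. No expression of Mcpt8 was read from the levels in these classes. Prss34 was likewise at 98.4 to 178 CPM and 177 to 284 in stem cell-like cells and 125 to 180 and 188 to 315 in T/NK-like cells.

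Cpa3 rose in stem cell-like cells of KO mice. It was at 162, 141 and 82.6 CPM (166, 72 and 81 UMIs) in KO1 to KO3 and 42.7, 29.3 and 37.3 CPM (14, 20 and 25 UMIs) in WT1 to WT3 (1.79 ± 0.26, edgeR adjusted p = 6.23e-04). The groups did not overlap, and KO libraries were above the T/NK-like level of 20.5 to 40.2 CPM where wt libraries were not clearly so (16 to 39.4 CPM). All 3 members tested in this class were called, Mcpt8 and Prss34 as lower at the low levels given above, where 1% of 6171 genes were called. A Cpa3 UMI was found in 13% ± 3.50 of thinned KO and 5.36% ± 2.14 of thinned wt stem cell-like cells (24.6% and 13.8% unthinned, at median depths of 5586 to 6027 and 4586 to 7112 UMIs), and in 4.17% and 2.66% of thinned T/NK-like cells (exact permutation p = 0.1 for the former pair). With the title prefix as a covariate the Cpa3 call was lost (1.44, edgeR adjusted p = 0.336). Gzmb gave 10, 29 and 12 UMIs in KO and 0, 2 and 1 in wt, and Hdc 6, 3 and 5 against 0, 0 and 2, too few to pass the filter on low counts.

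Cpa3 and Hdc also rose in the remaining cells, 9450 that met several class gates or none. These were led by the neutrophil granule genes Elane and Prtn3, and 57.6% to 59.1% of them in KO but 36.3% to 47.1% in wt met the granulocyte progenitor gate. Cpa3 was at 172.5, 150.5 and 192.5 CPM in KO and 62.3, 78.3 and 87.5 in wt (1.15 ± 0.128, edgeR adjusted p = 3.58e-04). Hdc was at 99.2, 97.2 and 103 CPM against 35.0, 32.7 and 51.1 (1.30 ± 0.152, edgeR adjusted p = 4.59e-04). Neither gene's groups overlapped, and both were called in all 14 alternatives. Mcpt8, Prss34 and Gzmb were not called, leaving 2 of 5, with 9.36% of 11802 genes called. Summed neutrophil markers were at 6706 to 9673 CPM in KO and 1477 to 3727 in wt, and their part in the result was not tested. Counting every cell outside the basophil-like gate that met the granulocyte progenitor gate, a grouping added after the data were seen, Cpa3 (1.06 ± 0.117, edgeR adjusted p = 4.66e-04) and Hdc (1.17 ± 0.111, edgeR adjusted p = 1.67e-04) rose within that gate too. Grouped in this way, Hdc also rose in cells of the T/NK-like (1.32), monocyte/dendritic-like (1.44) and stem cell-like (0.84) gates, and Cpa3 in the T/NK-like (1.03), stem cell-like (0.88) and megakaryocyte-like (1.54) gates. Cells counted in several gates enter each of these sums. Of the remaining cells, 64.4% to 68.2% in KO and 43.6% to 54.8% in wt met the T/NK-like gate. In the T/NK-like class, whose cells met that gate alone, Cpa3 (0.24, edgeR adjusted p = 0.847) and Hdc (0.32, edgeR adjusted p = 0.839) were not called. With overlapping gates the stem cell-like value of Cpa3 was smaller than the 1.79 given above. Mcpt8 was then not called in the T/NK-like gate (−0.47, edgeR adjusted p = 0.0815).

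The opposite directions of Cpa3 and Hdc inside and outside basophil-like cells were tested as differences of effect. Between remaining and resting basophil-like cells the effect differed by 2.51 ± 0.103 for Hdc (edgeR adjusted p = 1.70e-16), 1.53 ± 0.064 for Cpa3 (edgeR adjusted p = 2.00e-16) and 0.61 ± 0.1 for Mcpt8 (edgeR adjusted p = 1.34e-04), 3 of 5 members where 8.42% of genes differed. Mcpt8 was low in remaining cells, at 231, 202 and 185 CPM in KO and 285, 201 and 329 in wt. In T/NK-like cells, which should lack the gene, it was at 97.4 to 160 and 197 to 273 CPM. Between stem cell-like and resting basophil-like cells the effect differed by 2.20 ± 0.214 for Cpa3 (edgeR adjusted p = 1.36e-11), and for Gzmb and Hdc on the few UMIs given above, 3 of 5 where 2.58% differed. Over all kept cells neither Cpa3 nor Hdc was called, and whether the opposite effects have a part in this was not tested. There Cpa3 was called lower with DESeq2 (−0.28, DESeq2 adjusted p = 0.0480) and without WT1 (−0.36, edgeR adjusted p = 0.0490). Hdc was called lower without WT1 (−0.36, edgeR adjusted p = 0.0453), and its direction turned in 3 of 14 alternatives.

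**Figure D4:**
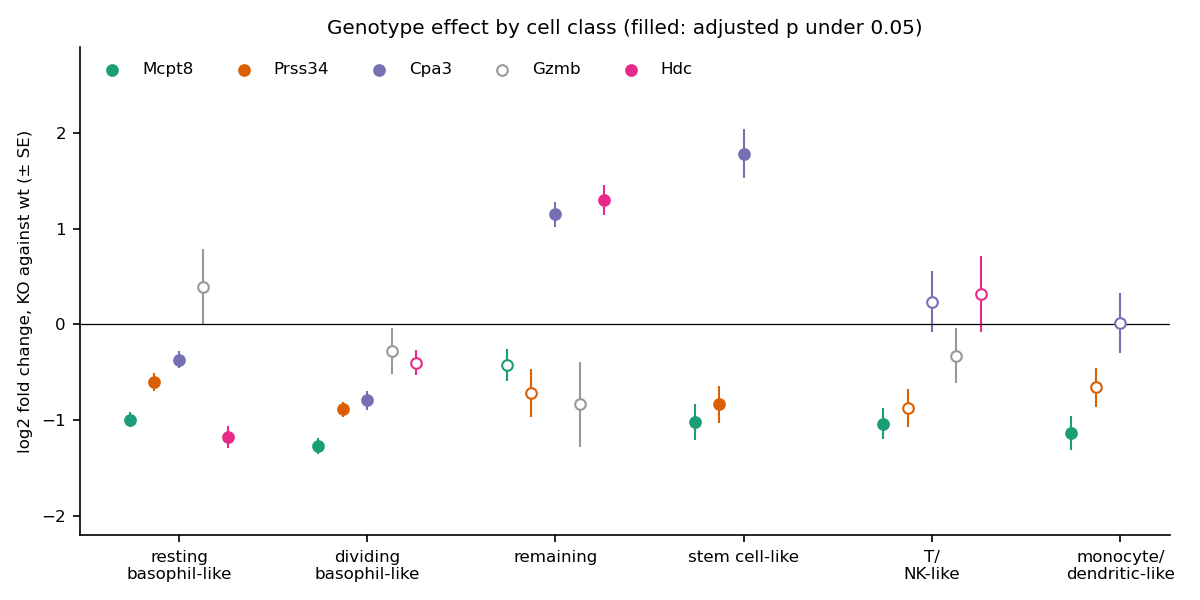
Log2 fold change, KO against wt, with its standard error, for the members outside the gate in 6 cell classes; filled points have an edgeR adjusted p under 0.05, and members under the low-count filter are not drawn. Cpa3 and Hdc are below 0 in basophil-like cells and above 0 in remaining cells (1.15 and 1.30), and Mcpt8 is below 0 in each class.

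**Figure D5:**
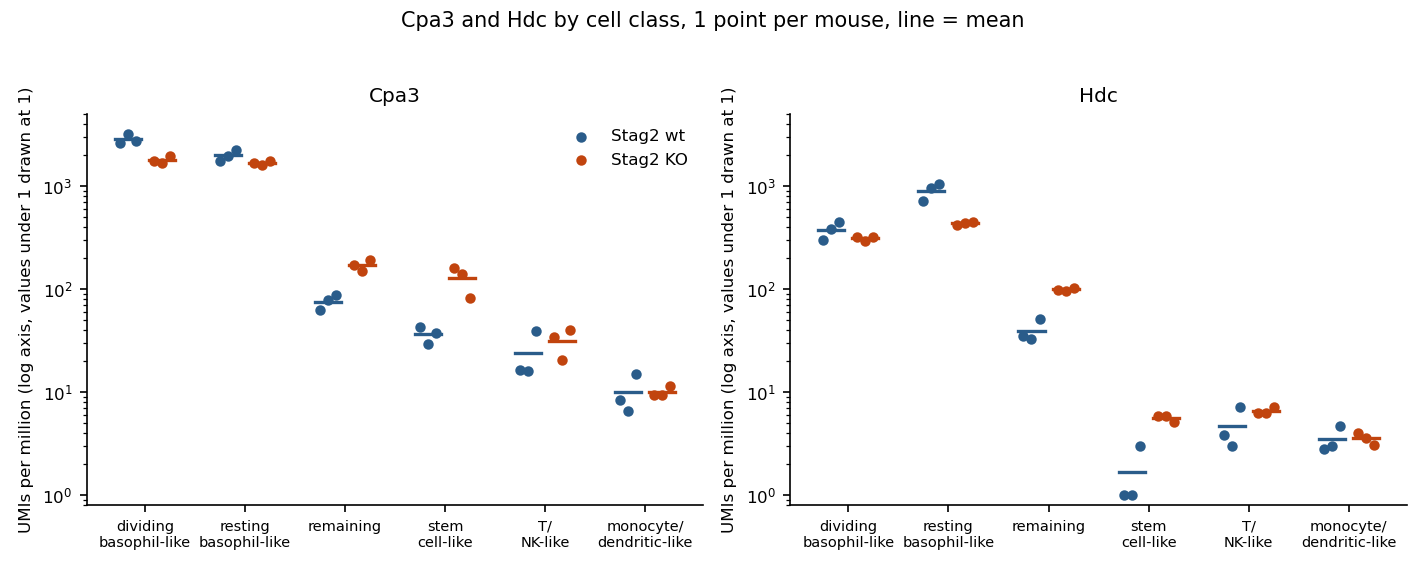
Cpa3 and Hdc in 6 cell classes, UMIs per 1000000 on a log axis with values under 1 drawn at 1; points are mice, lines are means of the drawn values. KO points lie below wt points in resting basophil-like cells and above them in remaining cells, for Cpa3 also in stem cell-like cells (82.6 to 162 against 29.3 to 42.7).

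For other genes of the members' pathways, the median log2 fold change over all genes was 0.01 in resting and 0.008 in dividing cells, where 7.18% and 2.78% of genes were called lower and 3.46% and 0.999% higher. Among 8 other granule protease genes tested in resting cells, 1 rose and 2 fell: the lysosomal protease Ctsd (−0.50) and the granule proteoglycan Srgn (−0.41) were lower, and the low serpin Serpinb6b was higher (median of the 8, −0.06). In dividing cells 2 of 7 fell, Ctsg (−0.42), cathepsin G, and its inhibitor Serpinb1a (−0.70). Of 4 other amine genes 1 fell in resting cells, the serotonin transporter Slc6a4 (−1.93), and none of 3 was called in dividing cells. Of 15 genes of IgE receptor signalling outside the gate, 4 fell and 1 rose in resting cells and 3 fell in dividing cells. The median of the 15 was −0.16 in resting cells and 0.14, above that of all genes, in dividing cells. The shared gamma chain Fcer1g (−0.31 and −0.39, resting then dividing) and the adaptors Lat (−0.53 and −0.56) and Lat2 (−0.36 and −0.42) fell in both states. Of 5 eicosanoid genes 1 rose and 1 fell in resting cells, the latter Alox5ap (−0.68 and −0.59 in dividing cells), which presents arachidonic acid to 5-lipoxygenase.

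Among 6 partners of Cd200r3, the related receptors Cd200r1 (0.36) and Cd200r4 (0.40) rose in resting cells, while the signalling adaptors Tyrobp (−0.47 and −0.33) and Hcst (−0.71 and −0.53) fell in both states. Of 5 steroid genes tested, 1 fell in resting cells, the electron donor Por (−0.41). Of 11 transcription factors 2 rose and 1 fell in resting cells and 1 rose in dividing cells. Runx1 rose in both states (0.92 and 0.64) and Irf8 fell in resting cells (−0.96, SE 0.275, edgeR adjusted p = 0.0297). Over all deposited resting cells, before cells were filtered, the Irf8 levels overlapped. They were 38.5, 42.3 and 44.3 CPM in KO1 to KO3 and 42.2, 29.9 and 68.3 in WT1 to WT3. Of 9 cytokines and chemokines 6 fell in resting and 5 in dividing cells, with none rising (medians −0.55 and −0.55). Ccl4 (−2.60 and −2.96) and Ccl6 (−1.28 and −0.80) were among them. Of 18 surface genes 3 rose and 7 fell in resting cells, and 5 rose and 4 fell of 15 in dividing cells. The interleukin 33 receptor Il1rl1 (1.47 and 1.16) was higher, and the tetraspanin Cd9 (−1.05 and −0.87) and the integrin Itgb7 (−1.04 and −1.22) lower.

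The genes most like each member were taken by Pearson's r of log2(CPM + 1) over 36 points, which are 6 classes of the same 6 libraries, so that points share libraries. Mcpt8 and Prss34 themselves had r = 0.995. The closest others to both were Alox12e (0.986 and 0.988), 5730460C07Rik (0.98 and 0.984) and Prss28 (0.982 for each), a tryptase-like gene beside Prss34. Prss28 fell in both states (−0.93 and −1.40), whereas Alox12e fell in dividing cells (−1.0) and not in resting cells (−0.14, edgeR adjusted p = 0.768). 5730460C07Rik was called in neither state (0.11 in resting and 0.04 in dividing cells). How reads shared by related proteases were counted was not given. Cpa3 was closest to Rapsn (0.965) and the granule membrane gene Cd63 (0.959), and both fell in both states (−0.73 and −1.11, then −0.41 and −0.53). Hdc was closest to Far2 and Chst13 (0.97 each), and Gzmb to Fam189b (0.884). Genes within 500 kb of the members, a window chosen after the data were seen, were counted too: of 24 tested around Mcpt8, 1 rose and 1 fell in resting cells, and 3 of 20 fell in dividing cells. Around Prss34 3 of 24 and 2 of 22 fell, around Gzmb 1 rose and 2 fell of 11 and 3 of 9 fell, and around Cd200r3 2 of 6 rose in resting cells and none of 5 was called in dividing cells. The windows of Mcpt8 and Gzmb overlap, so their counts are not independent. Mcpt8 itself is among the genes that fell around Gzmb in both states. The others called around Gzmb, Ltb4r1, Ripk3 and Ctsg, were also counted around Mcpt8. In resting cells 1 of 9 fell around Hdc and 1 of 12 around Cyp11a1, and none was called around Cpa3 or Fcer1a. Shares of all genes called stand beside the gene lists above.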

How the data were processed

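Per the labels' protocols, cells were captured on the 10x Chromium platform (Single Cell 3' V2). The authors deposited 1 table of raw UMI counts per sample, with cells as rows and genes as columns; the sources used here name no aligner, counter or build for them. The tables held 16155065 to 36248233 UMIs per library. Library numbers follow accession order and pair nothing. The prefix of the title code was XA in the 3 KO libraries and WT1; what it marks is not given.

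Cells entered with 500 genes or more and a mitochondrial share of 20% or less, and 47 to 367 cells per library with the highest simulated-doublet scores were removed. Libraries shared 11 to 48 cell barcodes per pair. Counts were summed per library and class (CPM: UMIs per 1000000 of the class) and tested with edgeR 4.0.16 in R 4.3.3 (quasi-likelihood, TMM, filterByExpr, Benjamini-Hochberg over all genes tested, 0.05). Errors of fold changes are standard errors and others SDs over 3 libraries. The design text counts 3 mice per genotype; p-values measure the spread between these samples. Shares were compared by 2-sided exact permutation, some on cells thinned to 2000 UMIs, which leaves out cells with fewer. Members, gates and gene lists were chosen with earlier results of these data known. Text names the members, Stag2, up to 4 list genes called with the smallest p, and 3 genes most like each member; Gata2, neutrophil and other marker levels and the genes leading a class are given as checks. Alternatives are in the closing section. In counts simulated like the resting sums (8850 genes), the edgeR step recovered 80.6% of genes changed by 1 on the log2 scale and 33.3% of those changed by 0.5; for the difference between states (8937 genes) it recovered 44.4% and 1%. Promoters are from RefSeq (GRCm38.p6) and gene positions from GENCODE M21; the build behind the counts may differ. Figures used matplotlib 3.10.9.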

Additional observations from a re-analysis of the deposited data

Results flagged for a closer look

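The difference of the genotype effect between cell classes was tested directly, and it passed an adjusted p of 0.05 in edgeR for the results below. Between dividing and resting basophil-like cells the log2 effect of Hdc differed by 0.794, that of Cpa3 by −0.417, that of Prss34 by −0.29 and that of Mcpt8 by −0.269. Hdc was higher in wt in every pair of libraries in resting cells, whereas in dividing cells WT1 lay within the KO range.

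Between remaining and resting basophil-like cells the effect of Hdc differed by 2.514, that of Cpa3 by 1.533 and that of Mcpt8 by 0.606. All 3 KO libraries were above all 3 wt libraries for Hdc and Cpa3 in remaining cells, and below them in resting basophil-like cells. Mcpt8 lost this call with DESeq2 (0.62) and with the title prefix as a covariate (0.29). Its levels in remaining cells were low, at 185 to 231 CPM in KO and 201 to 329 in wt. In T/NK-like cells, which should lack the gene, they were 97.4 to 160 and 197 to 273.

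Between stem cell-like and resting basophil-like cells the effect of Cpa3 differed by 2.204, that of Gzmb by 3.203 and that of Hdc by 3.355. The stem cell-like counts behind the last 2 were 10, 29 and 12 UMIs of Gzmb in KO1 to KO3 and 0, 2 and 1 in WT1 to WT3, and 6, 3 and 5 against 0, 0 and 2 of Hdc, and both calls were lost with the prefix covariate, among XA libraries and without WT2. That of Hdc was also lost with DESeq2, which gave no adjusted p for Gzmb, and that of Gzmb without KO2 (2.52).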

How the results depend on the processing

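Every call rests on 3 libraries per genotype, and only WT1 among the wt libraries has the XA prefix, so the prefix covariate and the XA libraries rest on it. For the results below the cause was not tested. Genes called in resting cells numbered 956, against 598 with DESeq2, 285 with the prefix covariate, 313 among XA libraries, 392 among cells with at least 2000 UMIs, 390 with the gate on thinned cells, 573 with at least 20 UMIs of Mcpt8 and Prss34 and 633 without KO1. In dividing cells 310 became 119 with the prefix covariate, 97 among XA libraries, 536 with no low-count filter, 1152 in the gate of at least 3 UMIs of Mcpt8 and Prss34, 199 without KO1 and 202 without WT3. The 20 UMI gate and the authors' clusters were added after seeing the data. The genotype effect of Hdc between states kept its side of the threshold in all 22 alternatives run.

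Counts of members called moved as follows. Over all kept cells 5 became 3 among XA libraries and 3 among cells with at least 2000 UMIs. In the Mcpt8 and Prss34 gate the members outside that pair went from 2 to 0 in resting and from 1 to 2 in dividing cells. The difference between states went from 4 to 2 with DESeq2 and with gates of at least 2 or 5 UMIs, to 1 among cells with at least 2000 UMIs and with the gate on thinned cells, and from 2 to 1 with at least 20 UMIs of Mcpt8 and Prss34, where the state comparison itself went from 3 to 1. The stem cell-like count went from 3 to 0 with the prefix covariate, and that of the other classes from 4 to 8 with no low-count filter. Leaving out each library gave 4 to 8 members over all cells (8 without WT1), 2 to 5 for the difference between states (2 without KO1 or KO2), 1 to 3 in stem cell-like cells (1 without KO1) and 4 to 8 in the other classes (8 without WT2).

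Cd200r3 behind its own gate lost its call with RLE factors (−0.305), the prefix covariate (−0.214), XA libraries (−0.202), all deposited cells (−0.276), doublets kept (−0.271), at least 2000 UMIs (−0.182) and the Mcpt8 and Prss34 gate (−0.168), and without each library but WT1, in a range of −0.361 to −0.242. Cyp11a1 lost its call with at least 2000 UMIs (−0.221), with the Mcpt8 and Prss34 gate (−0.285) and without KO1 (−0.380), in a range of −0.497 to −0.380.

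Directions turned in these cases. With the prefix covariate and among XA libraries Gzmb gave 0.568 and 0.571 over all cells, 0.723 and 0.715 in T/NK-like cells and 1.109 and 1.111 in remaining cells, and Hdc 0.137 and 0.139 over all cells (0.063 with at least 2000 UMIs). In dividing cells Gzmb gave 0.021 with all deposited cells, 0.021 with doublets kept and 0.256 with a gate of at least 2 UMIs, and in resting cells −0.370 on thinned cells and −0.618 in the authors' clusters. Its difference between states turned with a gate of at least 2 UMIs (0.136) and on thinned cells (0.251), where those of Mcpt8 (0.037) and Prss34 (0.044) turned too. The state comparison turned for Gzmb (0.159 and 0.856, with at least 20 UMIs of Mcpt8 and Prss34 and in the authors' clusters) and for Cpa3 (−0.033 with a gate of at least 2 UMIs, −1.061 and −0.034 with the Mcpt8 and Prss34 gates of 3 and 20). In the gate of 3 Cpa3 was 0.215 in resting and Hdc 0.60 in dividing cells. Cpa3 in monocyte/dendritic-like cells was −0.060 with all deposited cells and −0.062 with doublets kept, and Mcpt8 in stem cell-like against resting cells 0.008 with DESeq2.

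Without single libraries, ranges crossed 0 for Cpa3 (−0.012 to 0.831) and Gzmb (−0.618 to 0.061) in T/NK-like cells, Cpa3 in monocyte/dendritic-like cells (−0.293 to 0.460), Gzmb in remaining cells (−1.177 to 0.005), Prss34 in remaining against resting cells (−0.288 to 0.172), and Mcpt8 (−0.245 to 0.263) and Prss34 (−0.392 to 0.054) in stem cell-like against resting cells.

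KO minus wt shares of cells, in percentage points, turned for basophil-like cells on thinned cells (0.668), and for a resting cell's UMI of Mcpt8 (1.811 unthinned, 1.771 thinned to 1000), Prss34 (1.965 and 1.275) and Cpa3 (9.461 and 3.048), and for Cpa3 in dividing cells (3.821 unthinned). Without single libraries the resting share ranged from −2.880 to 2.736 for Cpa3 and from −0.260 to 0.485 for Gzmb.

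No paired analysis was possible because library numbers follow accession order and carry no pairing. Leaving out basophil-like cells that meet another class was not run for dividing cells, of which too few were left in 1 library.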

Other observations

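In the remaining cells the ratio of Mcpt8 to Prss34 UMIs was 2.13 in KO1 and 0.953 to 1.30 in the other libraries, and in T/NK-like cells 0.702 to 1.05 over the 6 libraries. Ms4a2, whose product joins that of Fcer1a in the IgE receptor, was at 889 ± 71.2 CPM in all KO and 872 ± 43.9 in all wt basophil-like cells, beside 1225 ± 129 and 3001 ± 373 for Fcer1a. Qrfp, among the genes whose pattern was most like that of Gzmb, rose in both states (1.23 and 1.37).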
